A study of Mus musculus with 2 samples.

Results

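The genes described here encode the mitochondrial solute carriers, the uncoupling proteins and the voltage-dependent anion channels, and their transcripts were compared between PGC-1β(i)skm-/- gastrocnemius muscle and that of controls. Members were all genes whose symbol in the platform annotation starts with Slc25a, together with Ucp1, Ucp3, Vdac1, Vdac2 and Vdac3. This gave 51 genes of the 19936 named nuclear genes on the array, 46 of them Slc25a genes, measured by 58 probe sets. Ucp2 also belongs to the family and was not analysed here.

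The series holds 2 arrays, 1 for PGC-1β(i)skm-/- and 1 for control muscle, each from RNA pooled over 3 mice. PGC-1β(i)skm-/- mice were males with both PGC-1β alleles floxed at a single exon and with an HSA-Cre-ER T2 transgene, which places a tamoxifen-dependent recombinase under the human skeletal actin promoter and thus in myofibres. Control males carried the same floxed alleles without the transgene, although the labels call their genotype wild-type. Both groups were on a C57BL/6 background, were given tamoxifen, 1 mg daily over 5 days, starting at an age of 7 weeks, and were sampled 1 week after the last dose, aged 8 weeks. Only the mutants carry the transgene, so an effect of the recombinase cannot be told apart from an effect of the deletion. PGC-1β remains in the cells of the muscle that are not myofibres. With 1 array per genotype there is no error for any gene and no test, and a log2 difference below is the PGC-1β(i)skm-/- signal minus the control signal of the same probe set.

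Carriers of the Slc25 family are small proteins of the mitochondrial inner membrane, built from a repeated unit, that exchange nucleotides, phosphate, metabolites, amino acids and cofactors between cytosol and matrix. Uncoupling proteins belong to the same family by sequence, and Ucp1 of brown fat lets protons return to the matrix without ATP synthesis. Voltage-dependent anion channels are unrelated barrels of the outer membrane through which most of the same solutes pass. In skeletal muscle, ATP made in mitochondria reaches the contractile apparatus through this set of proteins.

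Ppargc1b, the targeted gene, had a log2 signal of 7.06 in PGC-1β(i)skm-/- muscle and 7.87 in control muscle, a ratio of 0.569. Ppargc1a, which encodes the related coactivator PGC-1α, had 10.29 in mutant and 10.18 in control muscle. The median log2 signal over 35556 probe sets was 6.02 on the mutant array and 6.00 on the control array. A list of 9 muscle fibre markers had a mean log2 signal of 13.42 in mutant and 13.43 in control muscle, with a median difference of 0.01. Of these 9, 4 were below 0, and differences ranged between −0.16, for Myh1, and 0.04, for Ckm. On a macrophage list, all 12 genes had the higher signal in the mutant, with a median difference of 0.20 and 5 genes at a ratio of 1.2 or more. Their summed linear signal was 2040 in mutant and 1720 in control muscle, and the part of these cells in the carrier values was not tested. In whole muscle, fewer cells of a type and less RNA per cell cannot be told apart.

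No member reached a ratio of 0.8 or less, the fold at which the methods of the study count a gene as lower, a fold that 0.652% of all named nuclear genes reached. No member reached a ratio of 1.2 or more either, against 1.64% of all genes. Differences were small and mostly of the same sign, since 37 of 51 members (72.5%) were below 0, against 50.2% of all genes. The median difference of the members was −0.05 on the log2 scale, or −3.69% on the linear scale, and the median of all genes was −0.0006. Differences of the members ranged between −0.32 and 0.18. A signal lower by 1.2-fold or more was found for 2 members (3.92%), Slc25a37 and Slc25a40, against 1.69% of all genes. A signal lower by 10% or more was found for 9 members (17.6%), against 8.11% of all genes, and these were Slc25a37, Slc25a40, Slc25a27, Slc25a18, Slc25a39, Slc25a15, Slc25a11, Slc25a46 and Slc25a22.

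**Figure D1:**
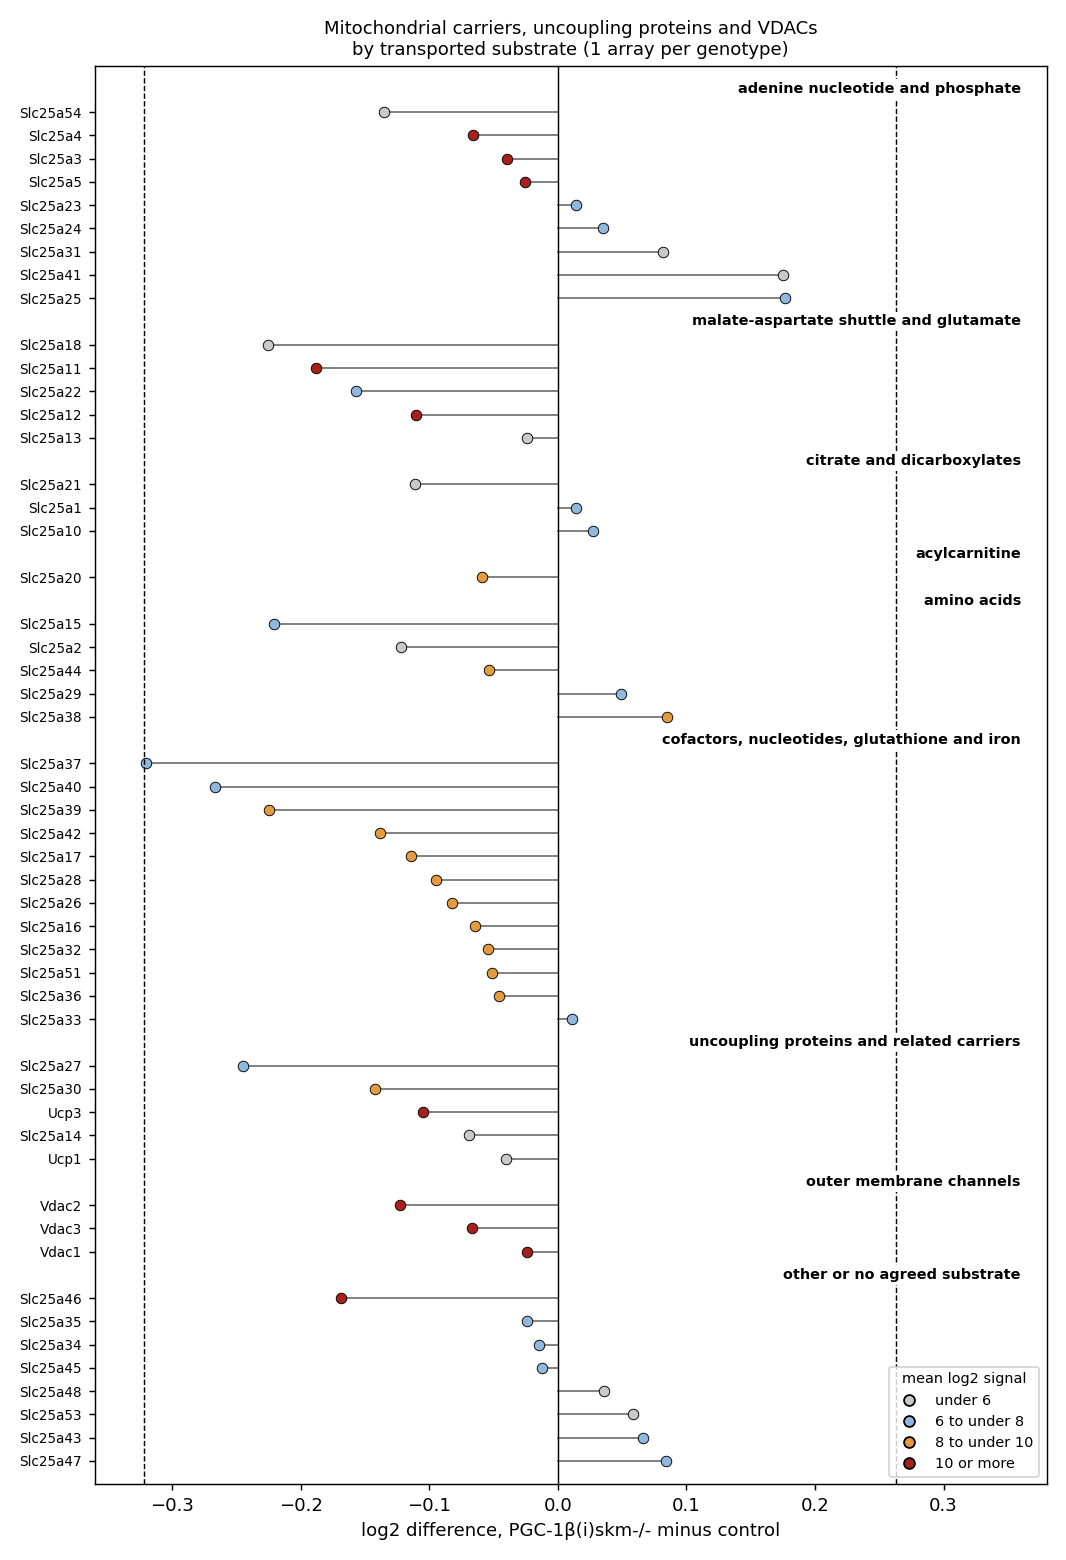
Difference of log2 signals (mutant less control) of each of the 51 members, grouped by transported substrate, with 1 point per gene, coloured by mean log2 signal, and dashed lines at ratios of 0.8 and 1.2. Points lie between −0.32 and 0.18, none beyond a dashed line, and 37 of them lie left of 0.

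The family was most uniform among its brightly measured genes. Of the 23 members with a mean log2 signal of 8 or more, 22 were below 0 (95.7%), whereas 58.5% of all named nuclear genes of such signal were below 0. The median difference was −0.07 for these members and −0.02 for all genes of such signal. The exception was Slc25a38, the glycine carrier that feeds haem synthesis, with 8.46 in mutant and 8.38 in control muscle. The standard deviation of the difference across these 23 genes was 0.0644, and that of all genes of such signal was not computed. Only 3 of them (13.0%) were lower by 10% or more, Slc25a39, Slc25a11 and Slc25a46, against 8.41% of all genes of such signal. None had a ratio of 0.8 or less (0.868% of all genes of such signal), none was lower by 1.2-fold (1.79%), and none had a ratio of 1.2 or more (0.598%).

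Dimmer members were spread on both sides of 0. Of 28 members with a mean log2 signal under 8, 15 were below 0 (53.6%), against 47.3% of all genes of such signal, with medians of −0.01 and 0.01. In the brightest class, at a log2 signal of 10 or more, all 10 members were below 0 with a median of −0.09, whereas 52.7% of all genes in that class were below 0 with a median of −0.0048. In the class between 8 and 10, 12 of 13 members were below 0 with a median of −0.06, against 60.6% and −0.02 for all genes. Between 6 and 8, 8 of 17 members (47.1%) were below 0 with a median of 0.01, against 48.5% and 0.004 for all genes. Under 6, 7 of 11 members (63.6%) were below 0 with a median of −0.04, against 46.4% and 0.0086 for all genes. Across the 51 members, Spearman's rho between difference and mean signal was −0.285, and across all genes it was −0.093. Within the 23 members at a signal of 8 or more it was 0.078. These values describe genes on the same 2 arrays and not independent replicates. RMA, the summary used by the authors, can compress differences of dim probe sets. The standard deviation of the difference was 0.1066 over all 51 members, which include the 23 bright ones, and 0.0644 over those 23. Over all named nuclear genes it was 0.1161.

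**Figure D2:**
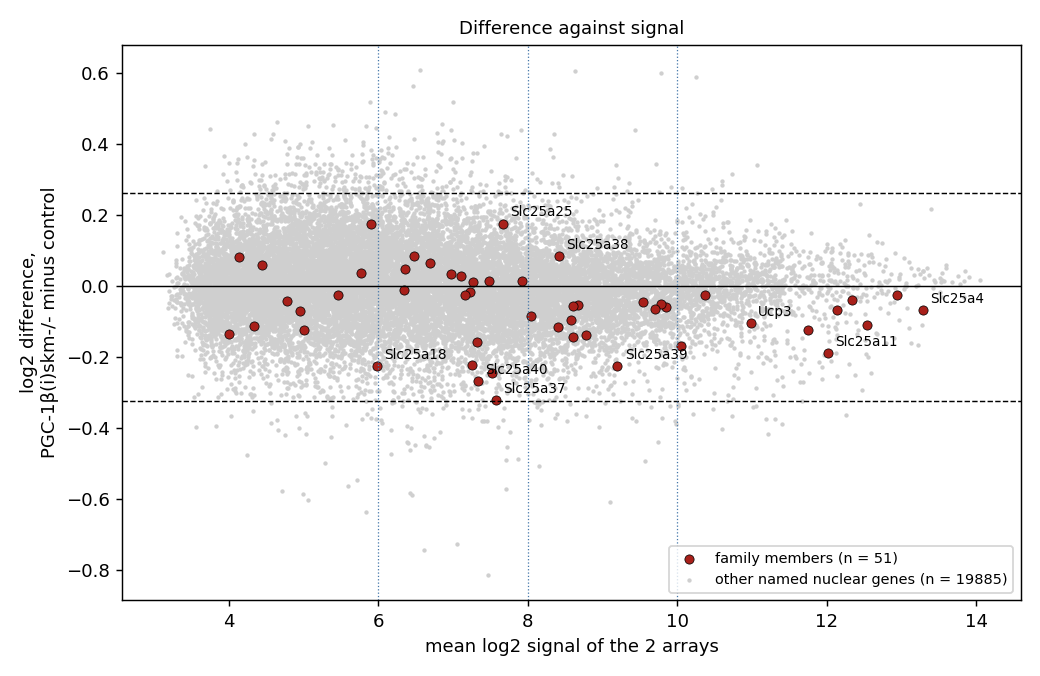
Difference of log2 signals (mutant less control) against mean log2 signal of both arrays, with the 51 members in red, the other named nuclear genes in grey, dashed lines at ratios of 0.8 and 1.2 and dotted lines at signals of 6, 8 and 10. Right of a signal of 8, 22 of 23 members lie below 0, and left of it 15 of 28 do.

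Slc25a4, Slc25a3 and Slc25a5, which exchange ATP for ADP or import phosphate, were bright and differed little. Slc25a4, the ADP/ATP carrier of heart and skeletal muscle, had a log2 signal of 13.25 in mutant and 13.31 in control muscle, a difference of −0.07. Slc25a3, the phosphate carrier that supplies ATP synthase, had 12.32 in mutant and 12.36 in control muscle, a difference of −0.04. Slc25a5, the ADP/ATP carrier typical of dividing cells, had 10.35 in mutant and 10.38 in control muscle, a difference of −0.03. Its 3 probe sets gave −0.03, −0.02 and −0.03, but near-identical copies of this gene lie in the genome and may share signal. All 3 of these genes were thus on the lower side in the mutant, by less than the −0.09 median of members of such signal.

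Of the ATP-Mg/phosphate carriers, which load the matrix with adenine nucleotides, Slc25a23, Slc25a24, Slc25a25 and Slc25a41 lay on the other side of 0, and Slc25a54, placed in the same class, did not. Slc25a25, which binds calcium on its cytosolic side, had 7.76 in PGC-1β(i)skm-/- and 7.58 in control muscle. Slc25a41, a relative without the calcium-binding part, had 5.98 in mutant and 5.81 in control muscle. Both differences were 0.18, the highest of the family, and Slc25a24 and Slc25a23 differed by 0.04 and 0.01. Slc25a54 differed by −0.13 and Slc25a31, the ADP/ATP carrier of testis, by 0.08, both at a signal under 6. Over the 9 genes of adenine nucleotide and phosphate transport, 4 (44.4%) were below 0, against 50.2% of all genes, and the median was 0.01.

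All 5 carriers of the malate-aspartate shuttle and of glutamate were below 0, against 50.2% of all genes. Their median of −0.16 was the value of the dim Slc25a22. The malate-aspartate shuttle moves the electrons of cytosolic NADH into mitochondria. It exchanges aspartate for glutamate and malate for oxoglutarate across the inner membrane. Slc25a11, the oxoglutarate/malate carrier, had 11.92 in mutant and 12.10 in control muscle, a difference of −0.19 and a ratio of 0.878. Slc25a12, the aspartate/glutamate carrier of muscle and brain, had 12.48 in mutant and 12.59 in control muscle, a difference of −0.11. Slc25a13, the same carrier of liver, was dim, with 5.44 in mutant and 5.47 in control muscle, a difference of −0.02. Glutamate carriers Slc25a22 and Slc25a18 were also dim, the first with 7.24 in mutant and 7.39 in control muscle, the second with 5.87 in mutant and 6.09 in control muscle. Markers of nerve, a tissue in which these 2 genes are also expressed, did not share a sign, since Mbp, of myelin, differed by −0.34, Snap25 by 0.03 and Syt1 by 0.06, and the part of nerve in these values was not tested.

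Enzymes on either side of the same shuttle were also lower on the mutant array. Mdh1, the cytosolic malate dehydrogenase, had 11.50 in PGC-1β(i)skm-/- and 11.82 in control muscle, a ratio of 0.799. Mdh2, its mitochondrial counterpart, had 12.59 in mutant and 12.72 in control muscle. Got2, the mitochondrial aspartate aminotransferase, had 12.83 in mutant and 12.98 in control muscle. Got1, the cytosolic one, had 12.34 in mutant and 12.44 in control muscle. Both enzymes of the other NADH shuttle, which passes through glycerol phosphate and needs no carrier of this family, were nearer to 0, with −0.03 for Gpd1 and −0.08 for Gpd2. Over 13 of 15 listed enzyme partners of the carriers, 11 (84.6%) were below 0 with a median of −0.08. Among all named nuclear genes 50.2% were below 0, and among those with a signal of 8 or more 58.5%. Mdh1 was the only listed partner at a ratio of 0.8 or less, which 0.652% of all genes reached.

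**Figure D3:**
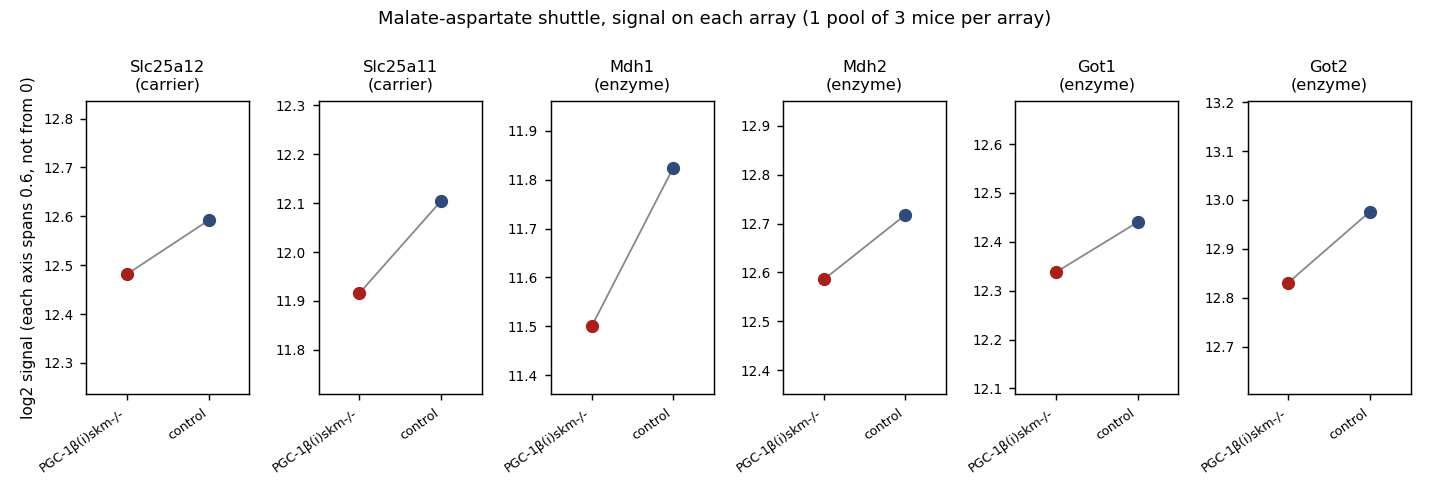
Log2 signal of 2 carriers and 4 enzymes of the malate-aspartate shuttle on the PGC-1β(i)skm-/- array (red, left) and the control array (blue, right), with each vertical axis spanning 0.6. The red point lies below the blue one for all 6 genes, by −0.32 for Mdh1 and by −0.10 to −0.19 for the others.

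Carriers of fuel intermediates differed little. Slc25a20, which exchanges acylcarnitine for carnitine and so admits long-chain fatty acids to oxidation, had 9.81 in mutant and 9.87 in control muscle, a difference of −0.06. Its partner in the same route, Cpt2, had 9.95 in mutant and 10.09 in control muscle, and Crat, which makes acetylcarnitine, differed by −0.06. Cpt1a, the liver form of the first enzyme of that route, lay on the other side of 0, with 8.22 in mutant and 8.17 in control muscle, a difference of 0.05. Cpt1b, the other listed form of that enzyme, was not analysed. Slc25a1, the citrate carrier, differed by 0.01, Slc25a10, the dicarboxylate carrier, by 0.03 and Slc25a21, a carrier of oxodicarboxylates, by −0.11. Among carriers outside the family, Mpc1, a subunit of the pyruvate carrier, differed by −0.03.

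Of 5 amino acid carriers, 3 (60%) were below 0, against 50.2% of all genes, with a median of −0.05. Slc25a15, the ornithine carrier of the urea cycle, had 7.14 in mutant and 7.36 in control muscle, a difference of −0.22. Slc25a2, a second ornithine carrier, differed by −0.12. Slc25a44, a carrier of branched-chain amino acids, had 8.65 in mutant and 8.70 in control muscle. Slc25a29, for basic amino acids, differed by 0.05 and Slc25a38 by 0.09, on the other side of 0.

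Carriers of cofactors, iron, nucleotides and glutathione made up the largest class. Of its 12 genes, 11 (91.7%) were below 0, against 50.2% of all genes, with a median of −0.09. The 2 lowest differences of the whole family were found here, for an iron and a glutathione carrier. Slc25a37, mitoferrin-1, which imports iron and is best known from red cell precursors, had 7.41 in PGC-1β(i)skm-/- and 7.73 in control muscle, a difference of −0.32 and a ratio of 0.801, just above the threshold of 0.8. It ranked 135 of 19936 genes counted up from the lowest difference. Slc25a28, mitoferrin-2, the form of most other tissues, had 8.53 in mutant and 8.63 in control muscle. Markers of red cell precursors did not move together, with −0.04 for Alas2, −0.14 for Slc4a1, 0.04 for Epb42 and 0.13 for Ermap. Their summed linear signal was 236 in mutant and 238 in control muscle, over 4 of the 7 markers listed.

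Glutathione enters mitochondria through Slc25a39 and Slc25a40, which had 1 and 2 probe sets. Slc25a39 had 9.08 in mutant and 9.31 in control muscle, a difference of −0.22 and a ratio of 0.856, the lowest among the 23 bright members. Slc25a40 had 7.20 in mutant and 7.47 in control muscle on its brighter probe set, a ratio of 0.831. Its other, dim probe set had 5.94 in mutant and 5.85 in control muscle and so ran the other way, by 0.09, and the mean of both gave −0.09.

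Carriers of coenzymes were lower by smaller amounts. Slc25a42, which imports coenzyme A, had 8.71 in mutant and 8.85 in control muscle, and Slc25a16, also linked to coenzyme A, had 9.67 in mutant and 9.74 in control muscle. Slc25a17, a peroxisomal member that carries coenzyme A and flavins, had 8.35 in mutant and 8.46 in control muscle. Slc25a51, the NAD carrier, had 9.75 in mutant and 9.80 in control muscle. Slc25a32, which serves folate and flavin transport, had 8.58 in mutant and 8.63 in control muscle, and Slc25a26, for the methyl donor S-adenosylmethionine, had 8.005 in mutant and 8.088 in control muscle. These 6 differences lay between −0.05 and −0.14. The pyrimidine nucleotide carriers were Slc25a36, with 9.52 in mutant and 9.57 in control muscle and a second probe set at −0.12, and Slc25a33, with a difference of 0.01.

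All 5 uncoupling proteins and relatives were below 0, against 50.2% of all genes, with a median of −0.10. Ucp3, the form of skeletal muscle, had 10.93 in PGC-1β(i)skm-/- and 11.03 in control muscle, a difference of −0.10. Slc25a30, a related carrier first described in kidney, had 8.53 in mutant and 8.67 in control muscle, a difference of −0.14. Slc25a27, the brain form also called UCP4, had 7.39 in mutant and 7.64 in control muscle, a difference of −0.25. Slc25a14, UCP5, was dim, with 4.92 in mutant and 4.99 in control muscle, a difference of −0.07. Ucp1, the brown fat form, was also dim, with 4.76 in mutant and 4.80 in control muscle. Beside it, Cidea, Elovl3 and Cox8b, listed as brown fat markers, differed by −0.10, −0.01 and 0.00. Cidea and Elovl3 were dim, with mean log2 signals of 5.01 and 4.33. Cox8b had 13.04 on both arrays, near the mean of the muscle fibre markers, so its value cannot be read as one of brown fat.

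In the outer membrane, all 3 voltage-dependent anion channels were below 0, in differing degree. Among all genes at a signal of 10 or more, 52.7% were below 0. Vdac2 had 11.69 in mutant and 11.81 in control muscle, a difference of −0.12, and its second probe set gave −0.08. Vdac3 had 12.10 in mutant and 12.16 in control muscle, a difference of −0.07. Its other 2 probe sets hold identical values with a difference of −0.03, and near-identical copies of this gene may share its signal. Vdac1, a docking site for hexokinase, had 12.93 in mutant and 12.95 in control muscle, a difference of −0.02, and the hexokinases Hk1 and Hk2 differed by 0.03 and −0.02. Slc25a46, an outer membrane member that acts in mitochondrial shape rather than in transport, had 9.97 in mutant and 10.14 in control muscle, a difference of −0.17. The remaining 7 members, to which no substrate was assigned here, lay between −0.02 and 0.08, all at a signal under 8.

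Transport proteins of mitochondria that lie outside the family showed differences of similar size. Of 19 measured genes of a list of 23, 14 (73.7%) were below 0 with a median of −0.05. Among all named nuclear genes 50.2% were below 0, and among those with a signal of 8 or more 58.5%. None of the 19 passed a ratio of 0.8 or 1.2, which 0.652% and 1.64% of all genes did. Mtch1, a distant relative in the outer membrane, had 9.45 in mutant and 9.61 in control muscle, a difference of −0.16. Smdt1, a subunit of the calcium uniporter, differed by −0.14 and Mcu, its pore, by 0.07. Abcb8, an ABC transporter of the inner membrane, differed by −0.16.

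Set beside other groups of genes, the carriers had a median between those of other Slc genes and of complex I genes. The other 304 Slc genes, most of which encode transporters of other membranes, had a median difference of 0.01 with 143 below 0, and among the 51 of them with a signal of 8 or more, 30 were below 0 with a median of −0.01. Complex I genes, named Nduf, had a median of −0.22 with 34 of 36 below 0, and at a signal of 10 or more it was −0.21 with 26 of 26 below 0, against −0.09 with 10 of 10 for the carriers. Mitochondrial ribosomal protein genes had a median of −0.11 with 68 of 77 below 0, and the 8 of them at a signal of 10 or more had −0.09 with 7 below 0. No test of these differences between groups was possible with 1 array per genotype.

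**Figure D4:**
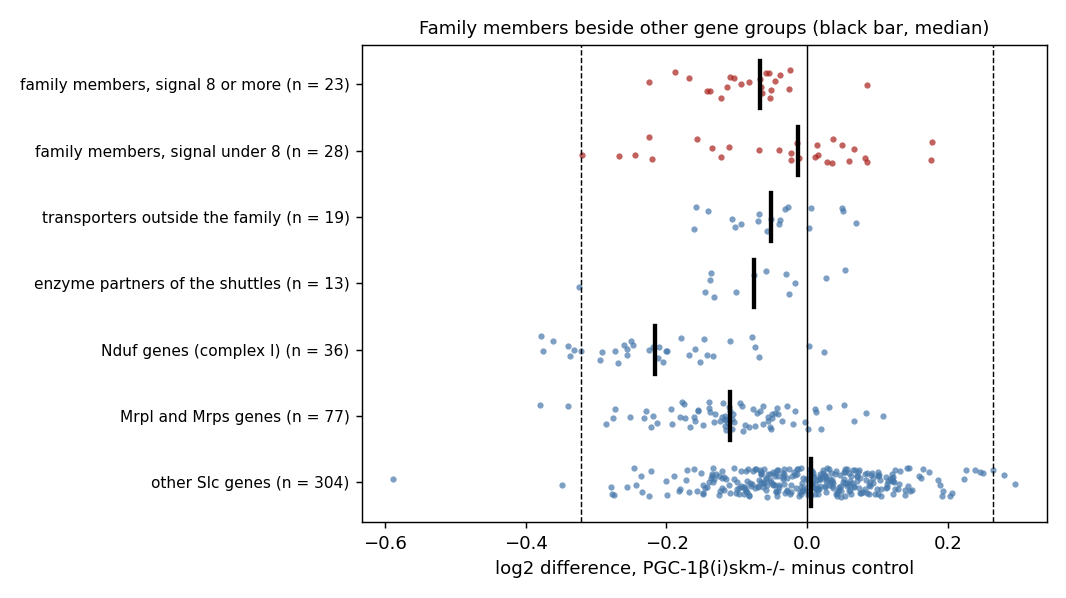
Difference of log2 signals (mutant less control) of each gene, 1 point per gene, for members with a signal of 8 or more and under 8, transporters outside the family, enzyme partners, complex I (Nduf), mitochondrial ribosomal protein (Mrpl and Mrps) and other Slc genes, with a bar at each median and dashed lines at ratios of 0.8 and 1.2. The medians are −0.07 for bright and −0.01 for dim members, −0.05 for transporters outside the family, −0.08 for enzyme partners, −0.22 for complex I, −0.11 for ribosomal proteins and 0.01 for other Slc genes.

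Promoters of the members were searched for binding motifs of factors with which PGC-1 coactivators are known to act, since most bright members lay on the same side of 0. RefSeq windows of GRCm38.p6, spanning 250 bases before to 50 bases after a start site, were found for 39 of 51 members, with 50 windows in all. Both strands were read for TNAAGGTCA, the extended element of oestrogen-related receptors, for its core AAGGTCA, which the extended element contains, for CCGGAAGT, the element of GABPA, and for GCGCANGCG, the element of NRF-1. The extended element was in 0 of 50 member windows and in 1.28% of all 32851 windows. Its core was in 2 (4%), of Vdac1 and Slc25a34, against 4.72% of all windows. The GABPA element was in 1 (2%), of Slc25a20, against 3.89%, and the NRF-1 element in 2 (4%), of Slc25a3 and Slc25a31, against 6.25%. Member windows were richer in G and C, with a median of 59.7% against 52.7% of all windows. A match is a run of letters and not a measured site.

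The matches are shown with their flanks, with the matched letters in capitals, read 5′ to 3′ on the strand of the gene, for the bright members Slc25a20 (chr9:108662017-108662104, plus strand), Slc25a3 (chr10:91124132-91124217, minus strand) and Vdac1 (chr11:52361451-52361537, plus strand), and for the dim Slc25a34 (chr4:141623907-141623993, minus strand) and Slc25a31 (chr3:40708787-40708875, plus strand). The matches in Slc25a3, Vdac1, Slc25a34 and Slc25a31 lie on the opposite strand and so read as the reverse complement. Log2 differences were −0.06 for Slc25a20, −0.04 for Slc25a3, −0.02 for Vdac1, −0.01 for Slc25a34 and 0.08 for Slc25a31.
Slc25a20: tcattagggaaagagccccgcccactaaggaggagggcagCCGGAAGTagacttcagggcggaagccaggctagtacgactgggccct
Slc25a3: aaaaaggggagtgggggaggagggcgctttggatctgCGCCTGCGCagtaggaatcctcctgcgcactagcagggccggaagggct
Vdac1: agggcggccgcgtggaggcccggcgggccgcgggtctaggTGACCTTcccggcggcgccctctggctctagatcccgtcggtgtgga
Slc25a34: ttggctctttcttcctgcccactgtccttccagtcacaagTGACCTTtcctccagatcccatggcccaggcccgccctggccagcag
Slc25a31: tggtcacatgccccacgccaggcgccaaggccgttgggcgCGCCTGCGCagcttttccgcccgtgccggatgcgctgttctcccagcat

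The bright members with the lowest differences, Slc25a39 at −0.22 and Slc25a11 at −0.19, held none of the motifs in their windows, and the sequence around the start of each is shown with the first transcribed base in capitals (Slc25a39, chr11:102407468-102407617, minus strand, and Slc25a11, chr11:70646990-70647139, minus strand).
Slc25a39: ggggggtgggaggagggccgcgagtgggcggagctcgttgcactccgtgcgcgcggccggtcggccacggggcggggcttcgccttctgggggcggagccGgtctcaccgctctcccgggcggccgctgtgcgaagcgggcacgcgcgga
Slc25a11: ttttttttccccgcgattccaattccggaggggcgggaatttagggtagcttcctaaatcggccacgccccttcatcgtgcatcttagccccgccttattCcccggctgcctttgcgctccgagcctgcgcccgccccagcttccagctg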

How the data were processed

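Gene expression was measured in gastrocnemius muscle on 2 Affymetrix Mouse Gene 1.0 ST arrays. The authors extracted intensities with GeneChip Command Console and deposited log2 signals per probe set, computed in Expression Console by RMA (background correction, quantile normalization between arrays and median polish over probes). Quantile normalization hides a change shared by all genes. For the probe sets, a genome build was not given in the sources used. RNA was isolated with a column kit per the labels and with TRIzol per the methods.

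Per gene, the control log2 signal was subtracted from the PGC-1β(i)skm-/- one. Of 35556 probe sets, 21789 had 1 gene symbol in the platform annotation, 1621 had several and 12146 were not listed, and 21698 matched a RefSeq gene by Entrez ID. For 997 genes with several probe sets, that of highest mean signal was taken. Ratios of 0.8 or less and of 1.2 or more follow the methods of the study. No filter was applied, and no test was possible. Members and lists were chosen with earlier results of these data known. Signals are printed for every member with a mean of 8 or more, and for up to 3 others per class by largest difference, with a few further ones added after their values were seen. Slc25a members were put in classes by transported substrate from general knowledge.

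Alternatives were the average over all probe sets of a gene, subtraction of the median difference or of a loess curve on signal (span 0.3), filters at 6 and 7, matching on updated symbols, probe sets of several genes and other folds. The calculation was tested on simulated data. Python 3.11.15, pandas 2.3.3, numpy 2.4.6, scipy 1.17.1, statsmodels 0.14.6 and matplotlib 3.10.9 were used.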

Additional observations from a re-analysis of the deposited data

How the results depend on the processing

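With other folds, 2 members were lower at 1.2-fold, 9 at a ratio of 0.9 or less, and 2 higher at a ratio of 1.1 or more, against 0 at the folds of the methods. The 77 other values over the family, its classes and the lists moved by less than 0.05 on the log2 scale or less than 1.5-fold in counts under the alternatives run. Of 51 members, 37 were below 0 with the mean of probe sets, with the median subtracted and with the loess curve subtracted, and no member changed sign. With the loess curve subtracted, 50.2% of all genes with a signal of 8 or more were below 0, against 58.5% without. The median of the members lay between −0.04 with the loess curve and −0.07 with only genes at a signal of 7 or more. Among 252 values of single genes, 1 moved by more, Slc25a40, to −0.09 with the mean of its probe sets, and Sfxn2, outside the family, changed sign with the loess curve, to −0.0004.

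Each genotype is 1 array, so that leaving out a replicate was not run and no value has an error. No paired analysis was possible because each genotype has a single array. Comparison of the members' protein sequences was not run. Detection above background was not assessed, and precision is limited by having only 2 arrays.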
